A study of Homo sapiens with 10 samples.

Results

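The genes described here make up the first gate of the cell cycle: the D cyclins CCND1, CCND2 and CCND3, the kinases CDK4 and CDK6 that they activate, the inhibitors CDKN2C, CDKN1A, CDKN1B and CDKN1C, and RB1, the substrate. They were taken by gene name from the deposited table of raw counts, which holds all 10 of them among 60574 named genes, and all 10 passed the filter on low counts as did 17834 genes in all. RNA was measured in U266, a human myeloma cell line with plasma cell features, known for a rearrangement at CCND1. All cells carried lentiviral dCas9-VPR, a nuclease-dead Cas9 joined to activation domains, and all were kept under puromycin at 4 µg/mL and blasticidin at 8 µg/mL from day 4 after transduction. In 5 libraries (A to E) the cells carried a guide RNA (gRNA2) aimed at the EFNB2 start site, EFNB2 being the gene of the membrane ligand ephrin-B2. In the other 5 (A to E) they carried a scrambled, non-targeting guide (cgRNA), called the control guide here. The activator was present in both groups, and the guide is the difference that the labels name between them. The labels name 1 guide per group, so the guide cannot be told apart from other differences between the 2 pools of cells.

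In a resting cell the RB1 protein holds E2F transcription factors inactive. D cyclins bind CDK4 or CDK6 and the complexes phosphorylate RB1, which frees E2F and lets genes of DNA replication be transcribed. CDKN2C (p18) belongs to the INK4 family, which binds CDK4 and CDK6 alone, while CDKN1A (p21), CDKN1B (p27) and CDKN1C (p57) form the CIP/KIP family, which binds complexes of cyclins and CDKs more broadly. Myeloma commonly overexpresses 1 of the D cyclins, often because a translocation or insertion places immunoglobulin enhancers beside its gene.

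Library totals ran from 47268072 to 56513548 counts. EFNB2 stood at 0.955 to 1.496 CPM in EFNB2-guide cells and 0.0365 to 0.170 CPM in control-guide cells (log2 fold change 3.32, SE 0.25, adjusted p = 4.68e-08, edgeR's quasi-likelihood test), where CPM are counts scaled to 1e6 per TMM-adjusted library. All 8 plasma cell markers were detected, at a summed 3532 to 3764 CPM in EFNB2-guide cells and 4023 to 4652 CPM in control-guide cells. Most of both sums was SDC1, at 2121 CPM in EFNB2-guide cells and 3015 CPM in control-guide cells, and the lower sum followed it. Of the 8, 3 rose (XBP1, SLAMF7 and CD38) and 3 fell (SDC1, TNFRSF17 and MZB1). Among all tested genes 22.8% were called higher and 22.6% lower. The T cell list summed to 11.5 to 12.7 CPM in EFNB2-guide cells and 8.96 to 10.4 CPM in control-guide cells, almost all of it from TRAC and CD3E, with 1 count and 2 counts of CD3D. The fibroblast list summed to 22.7 to 27.01 CPM in EFNB2-guide cells and 16.3 to 21.9 CPM in control-guide cells, nearly all of it from COL1A1, with COL1A2, PDGFRB and DCN at 11 to 26 counts over the EFNB2 guide libraries and 3 to 44 over the controls. The epithelial list summed to 1.78 to 2.46 CPM and 1.74 to 2.44 CPM, and the monocyte list to 0.246 to 0.395 CPM and 0.0729 to 0.349 CPM. The part of these marker differences in the results was not tested. The guides separated on the first principal component (61.7% of the variance). On the next (8.33%) both A libraries stood away from the rest, at opposite ends (EFNB2 A at 21.2, control A at -25.9).

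Of the 10 genes, 9 passed an adjusted p of 0.05 between the guides. CCND2, CCND3, CDKN1B, CDKN2C and RB1 rose, which is 5 genes where 22.8% of all tested genes were called higher. CCND1, CDK6, CDKN1A and CDKN1C fell, which is 4 genes where 22.6% of all tested genes were called lower. Only CDK4 did not pass. Across all tested genes 45.4% were called in either direction, so a call by itself was common. CDK6 and CDKN1C changed at least 2-fold, 2 of 10 genes against 4.03% of all tested genes. In 8 of the 10 genes the libraries of the guides did not overlap, against 30.3% of all tested genes. The median log2 fold change over the 10 genes was 0.05 and over all tested genes 0.01, while the median size of change without its sign was 0.28 and 0.16. All of the 10 genes but CDKN1C (0.47) had a mean log2 CPM of 1 or more. CCND3, CDK6, CDKN1C and RB1 lay below the middle of all tested genes in level. Among 10579 protein-coding genes whose log2 CPM averaged 1 or more, 26.1% were called higher and 29.5% lower. The labels name no separate cultures for the 5 libraries within a group, so p-values measure the spread between these libraries, which may be technical.

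**Figure D1:**
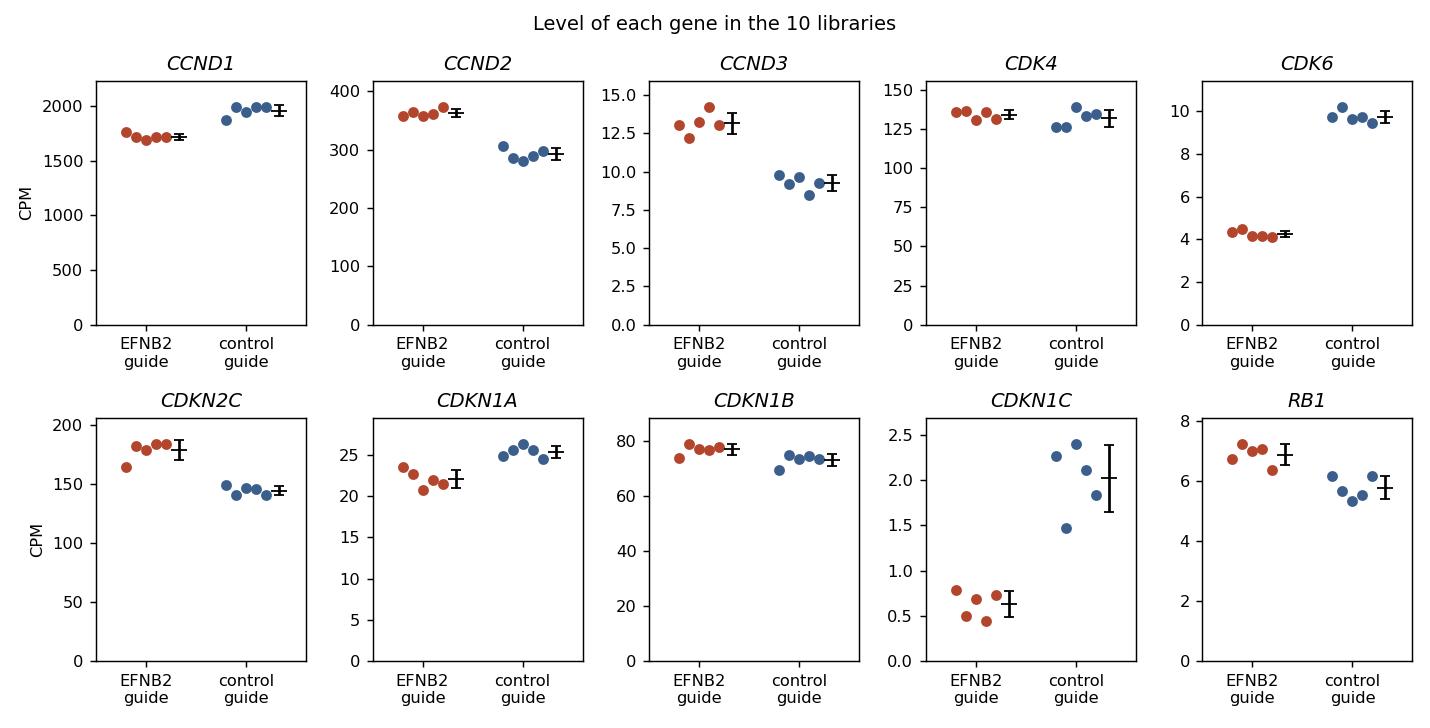
CPM of the 10 genes in each library (points, A to E from left to right within a guide; black bars, mean and SD of 5 libraries; each axis starts at 0). CDK6 and CDKN1C showed the widest gaps between the guides, and CDK4 and CDKN1B overlapped.

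CCND1 was by far the most abundant of the set. It stood at 1762, 1718, 1693, 1715 and 1716 CPM in the EFNB2 guide libraries A to E, against 1874, 1991, 1948, 1992 and 1992 CPM in the control libraries A to E. Every library in EFNB2-guide cells lay below every control, and the control A library was the lowest control. The means were 1721 ± 25.02 CPM in EFNB2-guide cells and 1959 ± 51.3 CPM in control-guide cells (SD, n = 5 each). The log2 fold change was -0.19 (SE 0.02, adjusted p = 1.36e-05, edgeR's quasi-likelihood test), or 0.878 times the control level, with 2 SE on either side spanning 0.849 to 0.908 times. CCND1 thus fell by 12.2% and its mean level exceeded that of 99.8% of genes tested. The gene lies on chromosome 11, 69641087 to 69654474, plus strand (GENCODE 29, GRCh38).

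CCND2, the D cyclin next in level, moved the other way. It stood at 358, 365, 358, 360 and 373 CPM in the EFNB2 guide libraries A to E, against 307, 286, 281, 289 and 298 CPM in the control libraries A to E. The groups were apart, and the control A library was the highest control. Its log2 fold change was 0.31 (SE 0.03, adjusted p = 1.65e-07, edgeR's quasi-likelihood test), a rise of 24.1%. In absolute terms the change of CCND2, 70.5 CPM, was smaller than that of CCND1, -239 CPM. CCND2 lies on chromosome 12, 4273772 to 4305350, plus strand.

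CCND3, the D cyclin that germinal centre B cells of mice rely on, was a minor transcript here. It stood at 13.1, 12.2, 13.2, 14.2 and 13.1 CPM in the EFNB2 guide libraries A to E, against 9.79, 9.19, 9.64, 8.50 and 9.24 CPM in the control libraries A to E. The groups did not overlap, and the log2 fold change was 0.50 (SE 0.05, adjusted p = 1.68e-06, edgeR's quasi-likelihood test), the largest relative change of the 3 D cyclins. CCND3 lies on chromosome 6, 41934933 to 42050357, minus strand.

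Comparisons of genes in CPM and ratios of counts are not scaled for length, and a longer transcript yields more reads. Levels were therefore also divided by the length of the merged exons of each gene in GENCODE 29. On that scale CCND1 stood at 356 ± 5.21 CPM per kilobase in EFNB2-guide cells and 406 ± 10.6 CPM per kilobase in control-guide cells (SD, n = 5 each). CCND1 made up 87.1% ± 0.263 of the length-scaled D cyclin RNA in EFNB2-guide cells and 90.5% ± 0.484 in control-guide cells (SD, n = 5 each). The share of CCND2 was 12.4% ± 0.261 and 9.12% ± 0.466, and that of CCND3 0.554% ± 0.0318 and 0.357% ± 0.0259, EFNB2 guide and control guide in each case. None of the 3 shares overlapped between the guides. The 3 D cyclins together came to 409 ± 5.12 CPM per kilobase in EFNB2-guide cells and 448 ± 9.77 CPM per kilobase in control-guide cells, and these sums did not overlap either. They are descriptions of the set and were not tested.

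**Figure D2:**
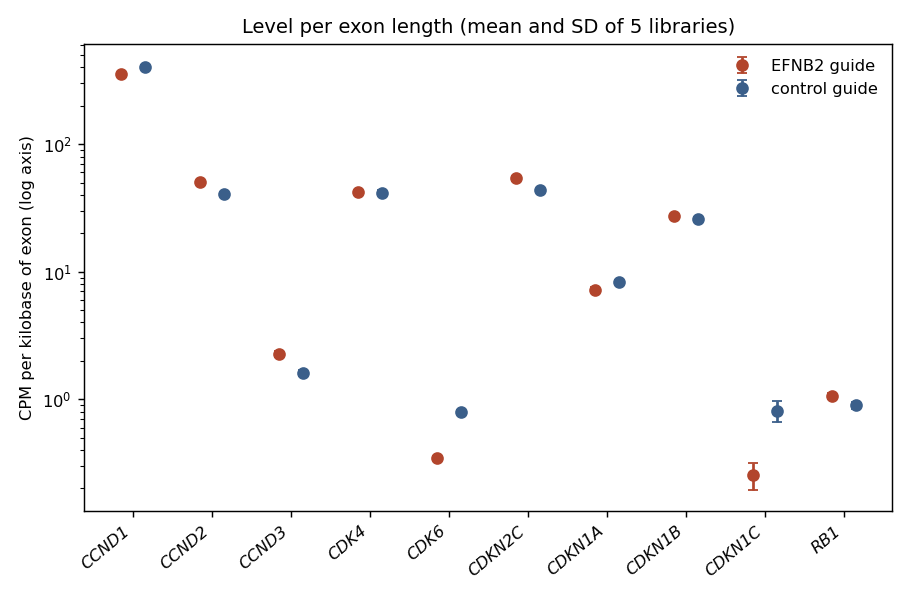
Level per kilobase of merged exon on a log axis (points, mean; bars, SD of 5 libraries; EFNB2 guide left, control guide right). CCND1 lay above all others, and CDK6 and CDKN1C were the lowest in EFNB2-guide cells.

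The kinases behaved differently from each other. CDK6 stood at 4.35, 4.48, 4.16, 4.16 and 4.11 CPM in the EFNB2 guide libraries A to E, against 9.72, 10.2, 9.64, 9.75 and 9.44 CPM in the control libraries A to E. The groups were far apart, with 1079 counts over the 5 libraries of the EFNB2 guide and 2627 over the controls. The log2 fold change was -1.20 (SE 0.05, adjusted p = 1.27e-10, edgeR's quasi-likelihood test), or 0.437 times the control level with 2 SE spanning 0.406 to 0.470 times. CDK6 lies on chromosome 7, 92604921 to 92836594, minus strand.

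CDK4 was at 136, 136, 130, 136 and 131 CPM in the EFNB2 guide libraries A to E, against 126, 126, 139, 133 and 135 CPM in the control libraries A to E. The groups overlapped, and the log2 fold change was 0.02 (SE 0.03, adjusted p = 0.550, edgeR's quasi-likelihood test), with 2 SE spanning 0.976 to 1.06 times the control level. TSPAN31, on the opposite strand, shares exon sequence with CDK4 and held counts equal to 13.3% of those of CDK4, and the strand setting of the counting is not given in the sources used here. CDK4 lies on chromosome 12, 57747727 to 57756013, minus strand.

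Per kilobase of exon, CDK4 exceeded CDK6 in both groups, 42.3 ± 0.911 CPM against 0.347 ± 0.0129 CPM in EFNB2-guide cells, and 41.6 ± 1.74 CPM against 0.795 ± 0.0228 CPM in control-guide cells (SD, n = 5 each). Counted within each library, which takes out library scaling, the ratio of CDK4 to CDK6 counts was 31.5 ± 0.820 in EFNB2-guide cells and 13.5 ± 0.857 in control-guide cells (SD, n = 5 each). The difference was 1.22 on the log2 scale (exact permutation test, two-sided, p = 0.0079, and 0.0079 adjusted over 3 ratios), the smallest p that 5 libraries against 5 allow. Length-scaled, CDK6 was 0.813% ± 0.0210 of the summed CDK4 and CDK6 RNA in EFNB2-guide cells and 1.88% ± 0.119 in control-guide cells (SD, n = 5 each).

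Among the inhibitors, CDKN2C was the most abundant and rose. It stood at 164, 182, 179, 184 and 184 CPM in the EFNB2 guide libraries A to E, against 149, 140, 146, 146 and 140 CPM in the control libraries A to E. The EFNB2 A library stood below the other 4 of its guide and still above every control. The log2 fold change was 0.31 (SE 0.03, adjusted p = 1.70e-06, edgeR's quasi-likelihood test), and 0.35 without both A libraries. The ratio of CDKN2C to CDK4 counts was 1.33 ± 0.0752 in EFNB2-guide cells and 1.10 ± 0.0563 in control-guide cells (SD, n = 5 each; log2 difference 0.28, exact permutation test, two-sided, p = 0.0079, and 0.0079 adjusted over 3 ratios). CDKN2C lies on chromosome 1, 50960745 to 50974633, plus strand.

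CDKN1A, a target of p53 that is induced by DNA damage and differentiation signals, was slightly lower. It stood at 23.5, 22.7, 20.7, 22.01 and 21.5 CPM in the EFNB2 guide libraries A to E, against 24.9, 25.6, 26.3, 25.6 and 24.4 CPM in the control libraries A to E. The groups did not overlap, although the EFNB2 A library lay close to the lowest control. The log2 fold change was -0.20 (SE 0.04, adjusted p = 0.000674, edgeR's quasi-likelihood test).

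CDKN1B, which restrains cyclin E and CDK2 in resting cells, ranged from 73.8 to 78.8 CPM in EFNB2-guide cells and from 69.2 to 74.9 CPM in control-guide cells. Its log2 fold change was 0.07 (SE 0.03, adjusted p = 0.0452, edgeR's quasi-likelihood test), and the groups overlapped. The call was lost when EFNB2 guide B, C, D or E, or control A, C or E, was left out singly (highest adjusted p 0.0849). The ratio of CDKN1A to CDKN1B counts was 0.288 ± 0.0192 in EFNB2-guide cells and 0.348 ± 0.0117 in control-guide cells (SD, n = 5 each; log2 difference -0.28, exact permutation test, two-sided, p = 0.0079, and 0.0079 adjusted over 3 ratios).

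CDKN1C, an imprinted gene that is expressed mainly from the maternal copy in human tissues, was the least abundant in counts and showed the largest relative change. It stood at 0.790, 0.502, 0.690, 0.451 and 0.731 CPM in the EFNB2 guide libraries A to E, against 2.268, 1.47, 2.40, 2.11 and 1.84 CPM in the control libraries A to E. The groups did not overlap, and the 5 libraries held 161 counts in EFNB2-guide cells and 546 in control-guide cells. The log2 fold change was -1.67 (SE 0.18, adjusted p = 1.70e-06, edgeR's quasi-likelihood test), or 0.315 times the control level with 2 SE spanning 0.247 to 0.402 times. Its level varied more between libraries of a guide than that of the other genes, with a coefficient of variation of 23.4% and 18.3% for the EFNB2 and control guides. For CCND1 this coefficient was 1.46% and 2.62%. CDKN1A lies on chromosome 6, 36676460 to 36687339, plus strand, CDKN1B on chromosome 12, 12715058 to 12722371, plus strand, and CDKN1C on chromosome 11, 2883213 to 2885773, minus strand.

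The 4 inhibitors together came to 88.6 ± 2.81 CPM per kilobase in EFNB2-guide cells and 78.6 ± 1.09 CPM per kilobase in control-guide cells (SD, n = 5 each), with CDKN2C and CDKN1B making up most of both sums. Per kilobase the order of the inhibitors was the same in both groups. With the EFNB2 guide it was CDKN2C at 53.8 ± 2.47, CDKN1B at 27.3 ± 0.667, CDKN1A at 7.24 ± 0.358 and CDKN1C at 0.255 ± 0.0598 CPM per kilobase, and in control-guide cells 43.5 ± 1.20, 26.0 ± 0.789, 8.32 ± 0.239 and 0.815 ± 0.149 (SD, n = 5 each). All neighbours in this order were separated by far more than their SD.

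RB1, the pocket protein that the kinases inactivate, stood at 6.72, 7.23, 7.002, 7.05 and 6.37 CPM in the EFNB2 guide libraries A to E, against 6.16, 5.66, 5.32, 5.54 and 6.16 CPM in the control libraries A to E. The groups did not overlap, but the EFNB2 E library exceeded the highest controls by little. The log2 fold change was 0.25 (SE 0.06, adjusted p = 0.00426, edgeR's quasi-likelihood test). RB1 lies on chromosome 13, 48303726 to 48599436, plus strand, on the same chromosome as EFNB2 and 57.9 Mb from it. Per kilobase it was at 1.07 ± 0.0523 CPM in EFNB2-guide cells and 0.894 ± 0.0586 CPM in control-guide cells (SD, n = 5 each), close to CDK6 in the control libraries.

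**Figure D3:**
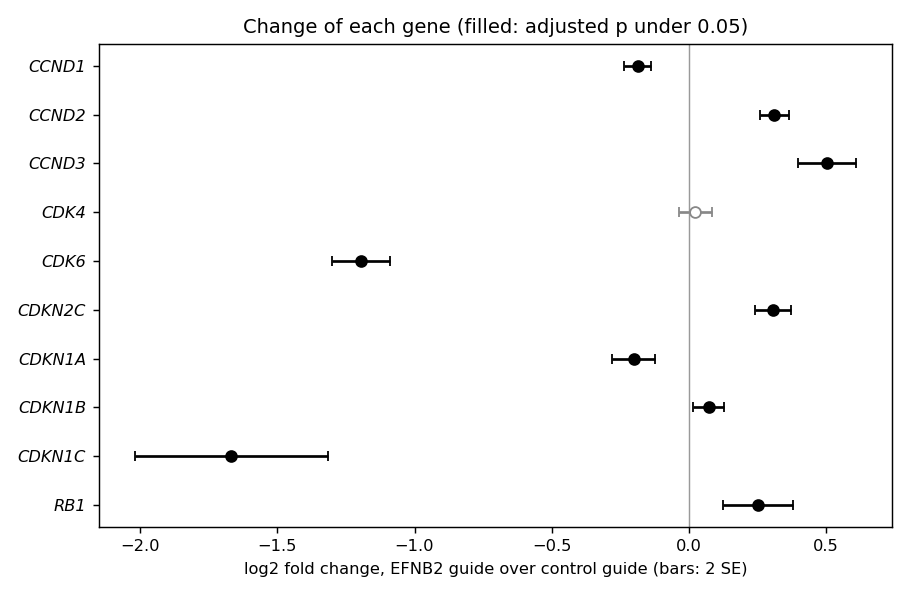
Log2 fold change of each gene, EFNB2 guide over control guide (bars, 2 SE; filled points, adjusted p under 0.05). CDK6 at -1.20 and CDKN1C at -1.67 stood apart from the other 8 genes, which lay between -0.20 and 0.50.

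RefSeq promoter windows (GRCh38.p14, 250 bases before to 50 after a transcript start) were at hand for 7 of the 10 genes, 12 windows in all, and 3 are shown for the gene with the strongest test among the falls and for 2 that rose. Capitals mark GC boxes, GGGCGG or its reverse complement CCGCCC, the letters that SP1 family factors bind. Each window is written 5′ to 3′ on the strand of its gene: chr7:92836524-92836823 (minus strand) for CDK6, chr1:50968456-50968755 (plus strand) for CDKN2C and chr6:41941759-41942058 (minus strand) for CCND3.
CDK6: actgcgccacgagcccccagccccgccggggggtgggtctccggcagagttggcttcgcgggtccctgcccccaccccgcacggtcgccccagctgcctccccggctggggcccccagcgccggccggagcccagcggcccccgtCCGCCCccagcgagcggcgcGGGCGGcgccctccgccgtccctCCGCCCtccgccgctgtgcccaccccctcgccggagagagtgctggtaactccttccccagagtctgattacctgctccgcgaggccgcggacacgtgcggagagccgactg
CDKN2C: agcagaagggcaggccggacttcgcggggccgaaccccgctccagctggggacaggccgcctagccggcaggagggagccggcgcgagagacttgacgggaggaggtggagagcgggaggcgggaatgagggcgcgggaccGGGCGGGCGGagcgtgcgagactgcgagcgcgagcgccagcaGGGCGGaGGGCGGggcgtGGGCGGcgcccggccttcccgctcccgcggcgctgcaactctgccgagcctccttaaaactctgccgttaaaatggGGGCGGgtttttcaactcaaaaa
CCND3: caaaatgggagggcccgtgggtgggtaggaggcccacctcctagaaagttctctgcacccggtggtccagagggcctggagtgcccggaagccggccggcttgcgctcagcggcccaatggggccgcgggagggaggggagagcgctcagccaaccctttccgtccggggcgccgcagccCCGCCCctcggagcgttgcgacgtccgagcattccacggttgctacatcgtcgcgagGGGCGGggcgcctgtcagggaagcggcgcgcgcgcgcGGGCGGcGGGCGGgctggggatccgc
GC boxes were present in 8 of the 12 windows, against 45.0% of 35116 windows in the table, in genes that rose (CDKN2C, CCND3) and in genes that fell (CDK6, CDKN1A). A TATAAA element was in 0 of the 12 windows, against 11.5% of all. The E2F letters TTTGGCGC, TTTCGCGC, TTTCCCGC and TTTGCCGC, searched on both strands, were in 0 of the 12 windows, against 3.31% of all. The forkhead letters TGTTTAC were in 1 of the 12, a second CCND3 window, against 3.42% of all. Some genes had several windows. CDK6, CDKN2C and CCND3 each also had a window without a GC box, which is not shown. The only window of RB1 began at 48476200, inside the gene, which begins at 48303726, so the first start of RB1 was not searched. Counts per gene do not show which start was used.

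The genes were then set beside the expressed protein-coding genes around them (within 2 Mb on either side, log2 CPM averaging 1 or more), since on 1 chromosome most genes moved together. On chromosome 15, 82.6% of such genes were called higher, with a median log2 fold change of 0.29, and none of the 10 genes lies there. The 19 neighbours of CDK6 had a median log2 fold change of -0.04 and those of CDKN1C, 18 in number, one of 0.06. Among all 10579 protein-coding genes at that level 26.1% were called higher and 29.5% lower. The 20 neighbours of CCND1 had a median of 0.07, with 6 called higher and 3 lower. The 13 of CCND2 had one of 0.14, with 7 called higher and 1 lower. For CDKN2C, 9 of 19 neighbours were called lower and 4 higher, while CDKN2C itself rose. CDK4 lay between the quartiles of its neighbours' changes, and CCND2 and RB1 lay just above theirs.

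**Figure D4:**
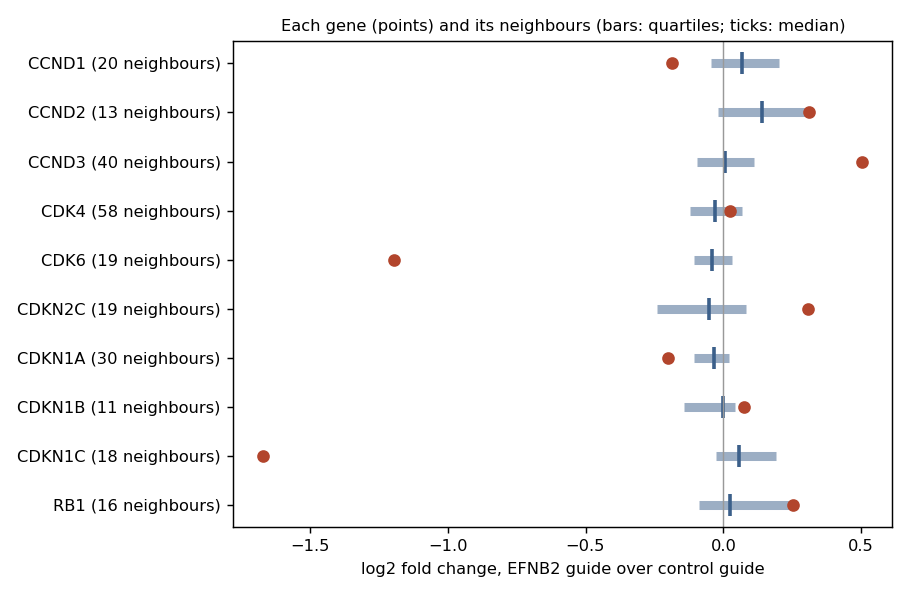
Log2 fold change of each gene (points) beside the expressed protein-coding genes within 2 Mb (bars, first to last quartile; ticks, median). CDK6 and CDKN1C lay far below their neighbours, whose medians were -0.04 and 0.06.

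A shorter list by name took 10 genes close to CCND1 on 11q13. Of these, 6 passed the filter, 3 rose and 0 fell, where 22.8% of all tested genes rose, and the wider window of 20 neighbours held 3 falls. CTTN, which encodes the actin-binding protein cortactin, rose with a log2 fold change of 0.54 (9.99 CPM in EFNB2-guide cells, 6.88 CPM in control-guide cells), PPFIA1 by 0.25 (45.1 and 38.03 CPM) and MYEOV by 0.46 (1.83 and 1.33 CPM). FADD, the adaptor of death receptors, was at 31.3 and 30.9 CPM (log2 fold change 0.02, adjusted p = 0.786, edgeR's quasi-likelihood test) and TPCN2 at 5.30 and 4.84 CPM (0.13, adjusted p = 0.159). LTO1, whose exons overlap those of CCND1 on the opposite strand, held 1.20% of the counts of CCND1 and did not pass the test (0.02, adjusted p = 0.778). FGF3 and FGF19 had 0 counts in every library, and 3 counts in a single library correspond to 0.0537 to 0.0627 CPM. FGF4 had 2 counts in each group and ANO1 7 in EFNB2-guide cells and 4 in control-guide cells. 

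The 4 genes listed as other CDK inhibitors all rose, where 22.8% of all tested genes were called higher. In 3 of the 4 the libraries of the guides did not overlap, against 30.3% of all tested genes. CDKN2D, which encodes the INK4 protein p19, rose to 11.7 ± 0.645 CPM in EFNB2-guide cells, against 7.14 ± 0.507 CPM in control-guide cells (SD, n = 5 each; log2 fold change 0.72, SE 0.06). CDKN2B, which encodes p15, rose to 19.5 ± 2.05 CPM against 11.9 ± 0.751 CPM (0.71, SE 0.07). CDKN2A, whose counts cannot be divided between the p16 and ARF transcripts here, was at 70.6 ± 1.89 CPM against 64.9 ± 2.08 CPM (0.12, SE 0.03), and CDKN3, a phosphatase that acts on CDKs, rose by 0.22. The libraries of CDKN3 overlapped, and its EFNB2 A library (7.03 CPM) lay below its control A library (7.20 CPM). The 4 genes had a median log2 fold change of 0.46. Of the 5 INK4 and CIP/KIP genes that rose, including CDKN1B and CDKN2C, CDKN2D and CDKN2B changed most.

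Genes downstream of the gate were read against the 22.8% of all tested genes that rose, the 22.6% that fell and the 30.3% whose libraries did not overlap. Among 12 E2F and pocket protein genes 7 rose and 4 fell (median 0.14), and 9 did not overlap. The repressor E2F7 (0.59), the activator E2F2 (0.43, 360 CPM in EFNB2-guide cells and 267 CPM in control-guide cells) and the repressor E2F8 (0.37) rose most. In 2 of the 7 rises the EFNB2 A library lay below the control A library. E2F7 (14.4 CPM in EFNB2 A, 14.5 CPM in control A) was among them. E2F5 (-0.47), the dimer partner TFDP2 (-0.30) and the RB1 relative RBL2 (-0.26, 124 and 148 CPM) fell most, so RBL2 and RB1 moved in opposite directions. RBL1 did not pass (-0.05, adjusted p = 0.236, edgeR's quasi-likelihood test).

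The partners that act after CDK4 and CDK6 rose in 4 of 5 tested cases and fell in none (median 0.29), and 3 of 5 did not overlap. CCNE2 (0.62), the S phase cyclin CCNA2 (0.50) and the phosphatase CDC25A (0.29), which removes inhibitory phosphates from CDK2, led them. CCNE1 did not pass (0.06, adjusted p = 0.292, edgeR's quasi-likelihood test), and CCNA1, nearly silent, was not tested. Of 20 E2F target genes 14 rose, among them the ribonucleotide reductase subunit RRM2 (0.37), and 1 fell (median 0.16). Only 7 of the 20 did not overlap, a share near that of all genes. In 8 of the 14 that rose, the EFNB2 A library lay below the control A library, against the direction of the groups. Without both A libraries 18 of 20 rose and 1 fell. MCM6 was the 1 fall (-0.07, adjusted p = 0.0461), and that call was lost on leaving out each of the 10 libraries singly (adjusted p from 0.0502 to 0.148, edgeR's quasi-likelihood test). In the list of the DREAM and MuvB complexes 4 of 7 rose and 0 fell (median 0.19), and 2 of 7 did not overlap, also near the share of all genes. The rises were led by the mitotic transcription factor FOXM1 (0.43) and by MYBL2 (0.28), which is also among the E2F targets. In 2 of the 4 rises, MYBL2 (496 CPM in EFNB2 A, 532 CPM in control A) among them, the EFNB2 A library lay below the control A library, and without both A libraries 4 of 7 rose. All 16 genes of G2 and mitosis rose (median 0.43) and 14 did not overlap, with the cyclin CCNB2 (0.87) and the kinesin KIF23 (0.75) first. CCNB2, KIF23 and BUB1B lie on chromosome 15. Leaving them out, 13 of 13 genes rose in the mitotic list.

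Among 17 genes of D cyclin, p27 and p21 degradation 3 rose and 5 fell (median -0.01), a share of calls near the 45.4% of all tested genes. In all 3 rises the EFNB2 A library lay below the control A library. SKP2, the ubiquitin ligase subunit that recognises p27, rose (0.24, 35.5 CPM in EFNB2-guide cells and 30.2 CPM in control-guide cells), as did DTL (0.19), while the F-box genes FBXW8 (-0.26) and FBXO31 (-0.22) fell. AMBRA1, a substrate receptor for D cyclins named after its values were seen, fell by 0.11. Of the CDK-activating kinase, CDK7 fell (-0.24) and CCNH and MNAT1 did not pass. Of 8 tested transcription factors of the D cyclin and p27 genes, ETS1 (0.35) and STAT3 (0.12) rose and FOXO4 (-0.23) and CTNNB1 (-0.09) fell, while MAF was too low to test. These 4 calls among 8 are also near the share of all genes, and 4 fell without the control A library. Among 10 other cyclin genes 4 rose and 1 fell (median 0.12), also near 45.4%, and 2 did not overlap. CCNDBP1, 1 of the rises, lies on chromosome 15, and without it 3 of 9 rose. Without the EFNB2 A library alone 6 rose and 1 fell, without the control A library alone 6 rose and 2 fell, and without both 6 rose and 3 fell. In the full set CCNG2 (0.64) and CCNL1 (0.36) were highest and CCNC (-0.16) was the fall.

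**Figure D5:**
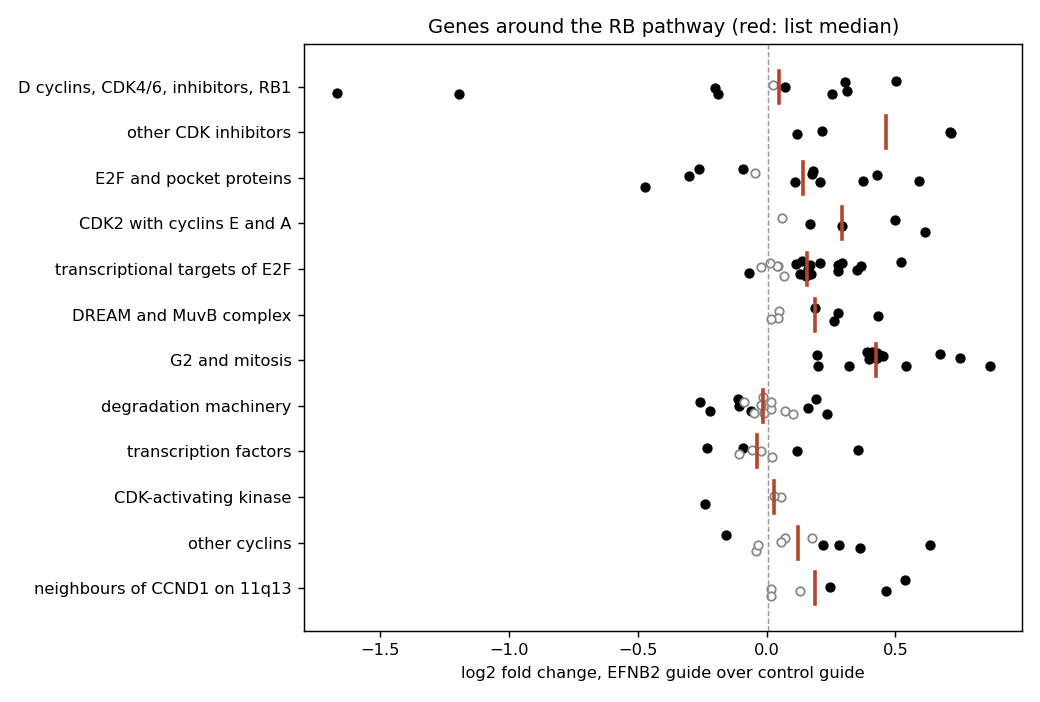
Log2 fold change of every tested gene of each list (filled, adjusted p under 0.05; open, not past it; red bars, list median; dashed line, median of all tested genes). The G2 and mitosis genes all lay above 0, while the 10 genes of the D cyclin gate spread from -1.67 to 0.50.

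Of genes whose log2 CPM averaged 5 or more, LTBP1 (r = 0.990) and JMJD1C (0.983) were among those that followed CCND1 most closely once the mean of each guide was taken out. These are Pearson correlations of TMM-scaled log2 CPM over 10 libraries among 6160 genes, and are given as a description. The part of the A libraries in these correlations was not tested. Between the guides LTBP1 had a log2 fold change of 0.16 and JMJD1C one of -0.06.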

How the data were processed

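All main results rest on the raw read counts that the authors deposited. Their second deposited table, a normalized signal proportional to the counts plus 0.0001 within a library, was an alternative. Per the labels' protocols, poly(A) RNA was made into strand-specific libraries and sequenced as read pairs. GRCh38 is the build, and STAR 2.27a, Partek and DESeq2 are the tools, listed without roles in the submitters' processing notes. Which annotation and strand setting were used for counting is not given in the sources used here. Rows named by a number (3, at most 7e-05% of counts) were left out.

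Counts were filtered with filterByExpr of edgeR 4.0.16 (R 4.3.3), TMM-scaled, and tested by edgeR's quasi-likelihood method with the guide as the single term, with Benjamini-Hochberg adjustment over 17834 genes and a threshold of 0.05. The SE is the absolute log2 fold change over the square root of F. Exon lengths came from GENCODE 29. Ratios used exact permutation tests. The genes and lists were chosen with earlier results of these data known. The text names all 10 genes, the 2 or 3 largest rises and falls of each list above a mean log2 CPM of 1, the genes near CCND1, the 3 genes most like CCND1, and those said to be chosen later. Some genes the rule gave are not reported here. Same-letter libraries did not pair (correlations of deviations -0.521 to 0.0102). Alternatives were DESeq2 1.42.0, limma-voom (limma 3.58.1), RLE, library totals, other filters, leaving out immunoglobulin genes, a replicate block by letter, log2(value + 1) of the deposited normalized table, and each library left out. Leaving out both A libraries was chosen after seeing the data. Limits from counts cover counting error only.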

Additional observations from a re-analysis of the deposited data

Results flagged for a closer look

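In 28 groups of 5 library values (10 genes and EFNB2 in CPM, and 3 ratios, for each guide), 1 held a library that stood apart by Dixon's criterion (gap over range above 0.71), where chance gives about 1 in 20. CDKN2C was at 164 CPM in the EFNB2 A library, while libraries B to E of that guide lay at 179 to 184 CPM.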

How the results depend on the processing

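Of the 10 genes, CCND1, CCND2, CCND3, CDK6, CDKN1A, CDKN1C, CDKN2C and RB1 kept their direction and their call under all 20 alternatives. CDK4 did not pass under any of them, and its log2 fold change was -0.0014 on the deposited normalized values. CDKN1B did not pass without a filter (0.069), with the replicate block (0.073) or on the deposited normalized values (0.047). The fold change of CDKN1C ran from -1.76 to -0.90, the smallest on the deposited normalized values, where adding 1 shrinks low genes. Leaving out each library in turn gave 0.053 to 0.090 for CDKN1B, 0.0071 to 0.045 for CDK4, -1.21 to -1.18 for CDK6 and -0.20 to -0.18 for CCND1. All genes called higher numbered 3729 to 4608 and lower 3514 to 4522 with 1 library left out, against 4072 and 4026. With the replicate block they numbered 3425 and 3337, and the block ended the call of CDKN1B but of no other gene among the 10. Samples shared only a letter, and no library correlated best with its own letter. On the deposited normalized values the split of all calls was 3558 higher and 4692 lower. Of the 34 other genes named from the lists and EFNB2, 33 kept their call under every alternative, MCM6 being the exception. Depth limits CDKN1C and the genes near 0 most.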
